A study of Mus musculus with 12 samples.

Results

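The SoxB, SoxE and SoxF genes were examined for trimethylation of lysine 27 of histone H3 (H3K27me3), the mark placed by Polycomb repressive complex PRC2. The 10 genes were taken by family membership out of 21755 protein-coding genes: Sox1, Sox2, Sox14 and Sox21 as SoxB, Sox8, Sox9 and Sox10 as SoxE, and Sox7, Sox17 and Sox18 as SoxF. A site was assigned to a gene if it overlapped the gene body or the 20 kb on either side, here called the window, by at least 1 bp. This gave 42 distinct sites out of 101389 in the deposited list, with 23 in SoxB, 9 in SoxE and 10 in SoxF windows.

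Chromatin immunoprecipitation sequencing was done on iMEF cells, immortalized mouse embryo fibroblasts that had floxed Ash2l alleles and Cre-ER. Exon 4 of the endogenous Ash2l had been deleted in all groups, and the cells lived on human ASH2L fused to a modified FKBP domain, expressed from a lentiviral construct. ASH2L is a core subunit of the KMT2 complexes, the enzymes for methylation of H3 at lysine 4, and dTAG-13 links the fusion protein to the ubiquitin ligase subunit Cereblon, which leads to its degradation. The study names a single selected cell clone for its ChIP-seq, so all groups are a model from 1 clone. H3K27me3 was measured without treatment and after 16 h, 24 h and 48 h of dTAG, with 2 libraries at each point, and input chromatin in 2 libraries each of untreated cells and of cells treated for 48 h. The list used here joins the sites of all samples and has no value for a library. From this list alone, untreated and treated cells could not be compared, no replicate error or test could be given, and the depth behind a site is unknown. The study did compare each time point with untreated cells, and its separate list of changed sites was not used here. In bulk chromatin it also cannot be told whether a site was carried by all cells or by part of them.

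Sox proteins bind DNA through an HMG box, a domain that fits into the minor groove and bends the helix, and they are grouped by the similarity of this box. SoxB proteins act in the early embryo and in the nervous system, where SoxB1 members such as Sox1 and Sox2 keep neural progenitors undifferentiated and SoxB2 members such as Sox14 and Sox21 counteract them. SoxE proteins act in the neural crest, in glia and in cartilage, and SoxF proteins in the endothelium of blood and lymph vessels. PRC2 is known to mark the genes of lineage regulators in cells of other lineages, often across CpG islands, which are stretches rich in unmethylated CpG dinucleotides. Fibroblasts are not the cells in which most of these Sox genes have their known roles. Expression was not measured in these samples, so sites are described without reference to transcript levels.

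A sequence of 300 bases around the RefSeq start, from 250 bases before it to 50 after it, was found in the RefSeq promoter table (GRCm38.p6) for 5 of the 10 genes, Sox1, Sox2, Sox14, Sox21 and Sox8. All 5 lay wholly inside H3K27me3 sites. The RefSeq start was not the GENCODE start used for all distances at Sox1 and Sox2, nor at Sox4, Sox11 and Sox12 below, so these 5 sequences are shifted from it. The promoters of Sox2 (chr3:34649745-34650044, plus strand), Sox21 (chr14:118236981-118237280, minus strand) and Sox8 (chr17:25570637-25570936, minus strand) are shown as a SoxB1, a SoxB2 and a SoxE example, with each CpG in capitals.
Sox2: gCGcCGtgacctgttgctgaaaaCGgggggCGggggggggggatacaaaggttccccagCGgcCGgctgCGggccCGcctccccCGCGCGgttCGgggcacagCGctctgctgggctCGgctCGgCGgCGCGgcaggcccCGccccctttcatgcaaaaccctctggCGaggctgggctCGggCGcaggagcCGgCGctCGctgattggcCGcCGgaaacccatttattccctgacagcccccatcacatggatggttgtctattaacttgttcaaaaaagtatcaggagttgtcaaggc
Sox21: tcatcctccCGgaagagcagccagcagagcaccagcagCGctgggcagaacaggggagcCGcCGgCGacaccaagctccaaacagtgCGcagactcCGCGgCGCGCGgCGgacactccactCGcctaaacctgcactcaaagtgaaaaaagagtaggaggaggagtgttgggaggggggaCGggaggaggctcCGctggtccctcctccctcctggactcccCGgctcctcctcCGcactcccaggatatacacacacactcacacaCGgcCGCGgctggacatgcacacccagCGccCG
Sox8: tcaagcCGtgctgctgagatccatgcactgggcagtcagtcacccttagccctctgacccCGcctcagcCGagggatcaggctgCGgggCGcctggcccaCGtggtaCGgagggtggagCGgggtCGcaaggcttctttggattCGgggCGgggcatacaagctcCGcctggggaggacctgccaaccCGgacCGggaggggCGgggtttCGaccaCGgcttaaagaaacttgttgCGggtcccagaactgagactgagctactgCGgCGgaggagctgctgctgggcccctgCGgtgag
They held 27, 22 and 21 CpGs, against a median of 7 over the 32851 promoters of the table, and Sox1 and Sox14 held 37 and 26. The short Sox recognition core ACAAT, searched on both strands, was found in none of the 5 promoters and in 31% of all promoters of this length, which says only that these letters are not in these windows.

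Promoters with many CpGs also occurred outside sites. The promoters of Sox11 (chr12:27342669-27342968, minus strand) and Sox12 (chr2:152397997-152398296, minus strand), SoxC genes shown as the counterpart, held 21 and 47 CpGs, and none of their bases was covered. The nearest site was 30306 bp from the TSS of Sox11 but only 471 bp from that of Sox12.
Sox11: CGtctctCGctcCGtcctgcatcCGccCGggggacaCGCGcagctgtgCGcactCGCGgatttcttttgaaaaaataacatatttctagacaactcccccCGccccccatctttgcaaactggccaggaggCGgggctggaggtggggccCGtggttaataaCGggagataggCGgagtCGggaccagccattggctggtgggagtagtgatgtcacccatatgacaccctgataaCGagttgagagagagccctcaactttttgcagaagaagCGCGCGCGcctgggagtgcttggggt
Sox12: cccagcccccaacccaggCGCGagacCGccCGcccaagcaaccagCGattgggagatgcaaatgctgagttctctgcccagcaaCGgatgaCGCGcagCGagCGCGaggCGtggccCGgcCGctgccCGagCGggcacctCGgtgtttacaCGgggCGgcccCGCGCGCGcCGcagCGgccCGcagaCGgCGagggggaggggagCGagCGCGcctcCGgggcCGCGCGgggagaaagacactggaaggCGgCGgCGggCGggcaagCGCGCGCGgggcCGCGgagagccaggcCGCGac
The Sox11 promoter thus had the same number of CpGs as the covered Sox8 promoter, and the Sox12 promoter more than any covered one shown. The promoter of the remaining SoxC gene, Sox4, also had no covered base but held only 12 CpGs, fewer than any covered one shown.

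A transcription start site (TSS) of any annotated transcript with an H3K27me3 site no more than 1 kb away was present at 9 of the 10 genes. This held for 26.9% of all protein-coding genes. The exception was Sox9. All 10 windows held at least 1 site, against 61.5% of all genes, but the one at Sox9 was 322 bp wide. The 10 genes all had a CpG island within 1 kb of a TSS, and the share with a site at the TSS among all genes of this kind was 26.6%. The covered share, which is the percentage of the bases of a window that lie in sites, had a median of 49.2% over the 10 genes, compared with 1.88% over all protein-coding genes. It was 1.80% over the 6487 genes with a body as short as those of the 10, from 1805 to 10333 bp. At least 50% of the window was covered for 5 of the 10 genes, namely Sox1, Sox2, Sox14, Sox21 and Sox10, against 6.47% of all genes. This limit was set after the values were seen. These were also the 5 genes with a site of at least 10 kb in the window, against 11.9% of all genes. That limit fell closely between Sox21, with a widest site of 10183 bp, and Sox7, with one of 9385 bp.

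The 3 groups were ordered by how far the sites reached beyond the gene. The median covered share of the window was 75.4% for SoxB (63.5% to 98.8%), 40.7% for SoxE (0.707% to 57.8%) and 20.9% for SoxF (18.7% to 25.9%). The 4 SoxB genes among the 10 lay above all SoxE and SoxF genes. Sox3, a SoxB1 gene outside the 10, had 35.4%, below Sox8 and Sox10. The SoxE genes had no common level, with Sox8 and Sox10 above and Sox9 below all SoxF genes. In the gene bodies alone this order was absent, since the medians were 92.8% for SoxB, 81.0% for SoxE and 94.0% for SoxF. Genes are not replicates of a condition, so these differences are descriptions of 10 loci and were not tested.

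**Figure D1:**
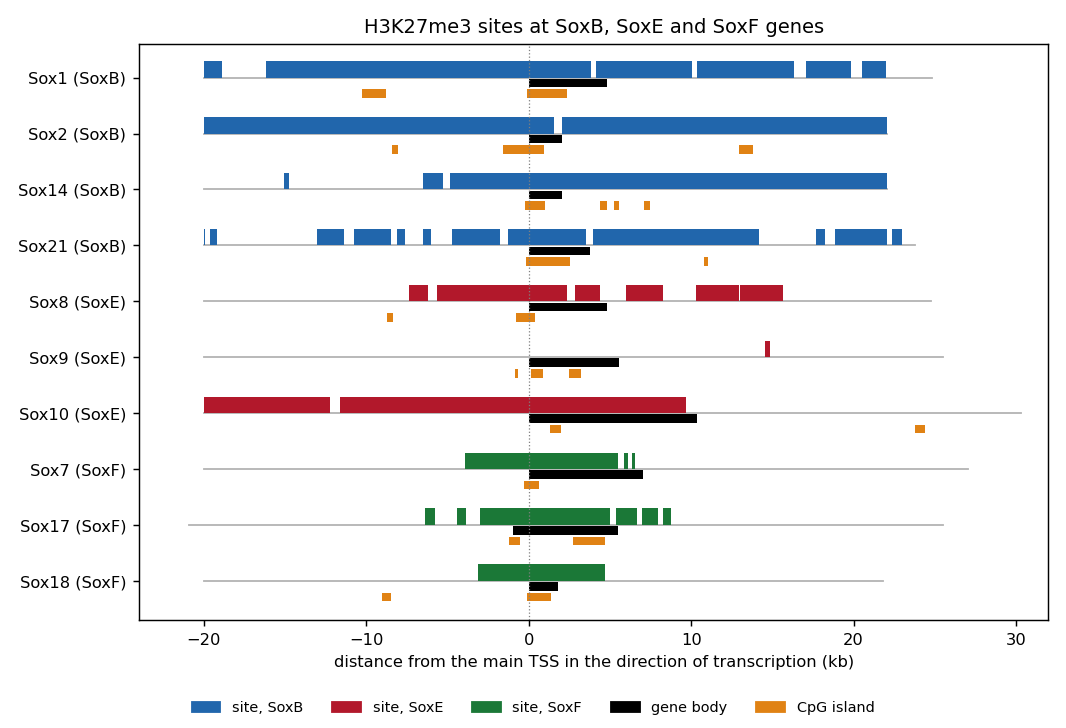
Map of the window of each gene, drawn in the direction of transcription with the distance from the main TSS in kb on the x axis. Coloured bars are H3K27me3 sites, cut at the window's ends, black bars gene bodies and orange bars CpG islands; sites span the TSS of 9 genes, and the only site at Sox9 lies 14535 bp from its TSS.

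Among the SoxB genes, Sox2, a pluripotency factor that also maintains neural progenitors, had the most complete coverage. Its window (chromosome 3, gene body 34650405 to 34652461, plus strand) was filled by 2 sites of 22462 bp and 24013 bp, and 98.8% of the bases were covered, more than in 99.86% of all protein-coding genes. Both 20 kb flanks were covered to 100%, and the only uncovered bases were 507 bp at the 3' end of its single exon. The coding sequence lay wholly in sites, as did all 3 CpG islands of the window. Sox2 lies inside Sox2ot, a long noncoding transcript of 578350 bp on the same strand, of which 30.5% was covered, so the coverage around Sox2 was not that of the whole transcript.

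Sox1, an early marker of the neural plate, had 6 sites over 83.1% of its window (chromosome 8, gene body 12395295 to 12400126, plus strand). The site over its TSS was 19979 bp wide, from -16162 to 3816 bp relative to the TSS, and held 53.6% of the covered bases. The upstream flank was covered to 86.4% and the downstream flank to 77.4%. The overlapping noncoding transcript Sox1ot was covered to 84.0% of its 50998 bp.

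The SoxB2 genes had smaller covered shares of the window than Sox1 and Sox2, and their flanks were covered more unevenly. Sox14, which acts in interneurons and thalamic neurons, had the widest site of all 10 genes, 29558 bp, which held 94.6% of the covered bases (chromosome 9, gene body 99874106 to 99876170, minus strand). Its downstream flank was covered to 100% and its upstream flank to 31.9%, and the site ran from -4857 to 24700 bp relative to the TSS. Sox21, a repressor that promotes neuronal differentiation, had the most fragmented window, with 12 sites from 439 bp to 10183 bp (chromosome 14, gene body 118233232 to 118237030, minus strand). They covered 63.5% of the window, with 48.5% of the upstream and 73.1% of the downstream flank. The site over its TSS was 4766 bp wide, and the widest one lay downstream. The noncoding gene Gm4675, which starts inside Sox21 on the other strand, was covered to 55.2%. All 11 CpG islands in the 4 SoxB windows lay wholly in sites.

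Of the SoxE genes, Sox10, which drives neural crest, Schwann cell and oligodendrocyte development, had sites almost entirely on the upstream side and over the gene. Sites covered 57.8% of its window (chromosome 15, gene body 79154908 to 79165240, minus strand), with 96.9% of the upstream flank and none of the downstream flank. One site of 21303 bp ran from -11601 to 9701 bp relative to the main TSS, and another of 13555 bp followed upstream. The boundary lay within the last exon, 631 bp before the 3' end of the gene. Upstream, the noncoding gene Gm10863 was covered to 86.4% of its 61484 bp. Downstream, Polr2f, which encodes a subunit shared by the nuclear RNA polymerases, 1700088E04Rik and Micall1 held no site.

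Sox8, expressed in neural crest, glia and the testis, had 6 sites over 40.7% of its window (chromosome 17, gene body 25565892 to 25570686, minus strand). The widest was 7970 bp and covered the TSS, and the others were from 1161 to 2665 bp. The upstream flank was covered to 33.9% and the downstream flank to 37.8%. Of the coding sequence 82.6% was covered, the lowest share among the 9 genes with a site at the TSS, owing to 1 uncovered stretch of 506 bp that held 245 coding bases. The antisense transcript 2810468N07Rik lay wholly in a site, while no site touched Lmf1, whose start lies upstream of Sox8 on the other strand.

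Sox9, the regulator of cartilage formation and of testis determination, was the gene without a domain. Neither its gene body (chromosome 11, 112782224 to 112787760, plus strand) nor the upstream flank had a covered base, and 0.707% of the window was covered. This was more than in 43.4% of all protein-coding genes. Its 3 CpG islands, 1718 bp in all, lay outside sites, with GC contents of 65.2% to 69.4% that resembled those of the covered islands of Sox8 and Sox10, 68.0% and 70.3%. The single site was 14535 bp downstream of the TSS, inside the noncoding gene Gm11681, and its width had rank 81081 from the widest in the list. The central 300 bases of this site (chr11:112796770-112797069, plus strand) are shown because it is the only one at Sox9, with its single CpG in capitals.
Sox9 site: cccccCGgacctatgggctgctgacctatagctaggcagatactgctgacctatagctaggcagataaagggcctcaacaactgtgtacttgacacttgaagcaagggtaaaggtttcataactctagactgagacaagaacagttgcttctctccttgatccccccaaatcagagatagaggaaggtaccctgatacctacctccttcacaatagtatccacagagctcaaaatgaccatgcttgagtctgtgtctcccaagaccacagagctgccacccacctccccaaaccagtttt
Over the whole site the CpG ratio, the number of CpGs over that from C and G content alone, was 0.0553, and in the sites of the other 9 genes it was from 0.213 to 0.477.

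The SoxF genes had compact sites centred on the gene. Sox7, an early endothelial and endoderm regulator, had 3 sites of 9385, 235 and 200 bp, which covered 20.9% of its window (chromosome 14, gene body 63943673 to 63950732, plus strand). The widest ran from 3893 bp upstream to 5491 bp downstream of the TSS and held 95.6% of the covered bases, and the downstream flank held none. Sox17, which specifies endoderm and arterial endothelium, had 6 sites over 25.9% of its window (chromosome 1, gene body 4490931 to 4497354, minus strand), the widest 8032 bp. All 6 lay between 6410 bp upstream and 8780 bp downstream of the main TSS. Sox18, which acts in lymphatic vessel formation, had 1 site of 7832 bp (chromosome 2, gene body 181669836 to 181671640, minus strand). It ran from 3109 bp upstream to 4722 bp downstream of the TSS and contained the whole gene. The covered shares of the 3 windows lay within 18.7% to 25.9%, the tightest range of the groups.

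The distance from the TSS separated the groups more clearly than the TSS itself. Within 5 kb of the main TSS, 78.3% to 100% of the bases were covered at the 9 genes other than Sox9, with medians of 95.8% for SoxB, 88.8% for SoxE and 85.9% for SoxF. From 5 to 20 kb the medians were 71.0%, 31.2% and 3.09%. Sox7, Sox17 and Sox18 had 3.09%, 11.4% and 0% there, below the mean of all protein-coding genes, 11.5%, although the median of all genes was 0% there, and the 4 SoxB genes 54.6% to 100%. Sox10 with 63.6% lay within the range of SoxB. Within 5 kb the mean of all genes was 14.7% and the median 0%.

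**Figure D2:**
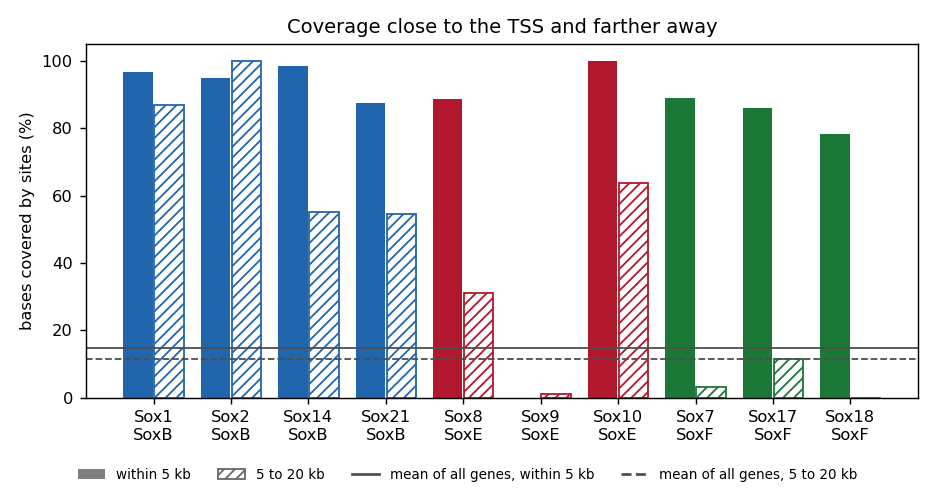
Bars give the percentage of bases covered by sites within 5 kb of the main TSS (filled) and from 5 to 20 kb on both sides (hatched) for the 10 genes, and horizontal lines the mean of all protein-coding genes. The filled bars of 9 genes are at 78.3% or higher, the hatched bars of the 3 SoxF genes are at 11.4% or lower and those of the 4 SoxB genes at 54.6% or higher, with Sox10 within the SoxB range, and Sox9 has 0% and 1.07%.

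When sites less than 3 kb apart were joined, the domain over the TSS was 56590 bp at Sox1, 54604 bp at Sox2, 41646 bp at Sox14 and 27181 bp at Sox21. It was 69208 bp at Sox10 and 23010 bp at Sox8. At Sox17, Sox7 and Sox18 it was 15191, 10469 and 7832 bp, so each SoxB and marked SoxE domain was wider than any SoxF domain. The widest domain was thus a SoxE one, of which 59506 bp lay upstream of the Sox10 TSS and 9701 bp downstream. Sox14 was uneven in the other direction, with 6533 bp upstream and 35112 bp downstream. Those of Sox2 and Sox21 were close to even, with 28553 and 26050 bp and with 13029 and 14151 bp.

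The median width of the 42 single sites was 2262 bp, compared with 676 bp for the whole list. It was 2787 bp in SoxB, 2660 bp in SoxE and 812 bp in SoxF windows. Of the 42 sites 7 were at least 10 kb wide (16.7%), against 2.35% of all sites, and none of these was at a SoxF gene.

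Up to flanks of 20 kb the shares of the 9 genes with a site at the TSS spread apart, from 75.4% to 100% in the gene bodies to 18.7% to 98.8%, and beyond 20 kb the highest shares fell. With flanks of 50 kb the SoxB genes were covered to 44.4% to 63.2%, Sox10 to 51.0% and Sox8 to 32.6%, and the SoxF genes to 11.3% to 19.5%, beside a median of 3.92% for all genes. With flanks of 500 kb the range over the 10 genes was 1.64% at Sox9 to 39.1% at Sox1, and the median of all genes was 8.69%. The order of the groups did not hold as the windows grew. With flanks of 100 and 500 kb the SoxE median, which was the share of Sox10 (38.8% and 25.3%), lay above the SoxB median. Single genes left the order too. With flanks of 50 kb Sox10 was above Sox14 and Sox21. With 100 kb Sox8 and Sox10, with 42.7% and 38.8%, were above 3 of the 4 SoxB genes. With 250 kb Sox8, with 50.8%, was above all 4, and Sox7, with 42.5%, above 3 of the 4. With 500 kb Sox7 had fallen to 30.9%, still above 3 of the 4. Sox17 fell to 3.96% with 250 kb and to 3.25% with 500 kb, below the medians of all genes, 7.48% and 8.69%.

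**Figure D3:**
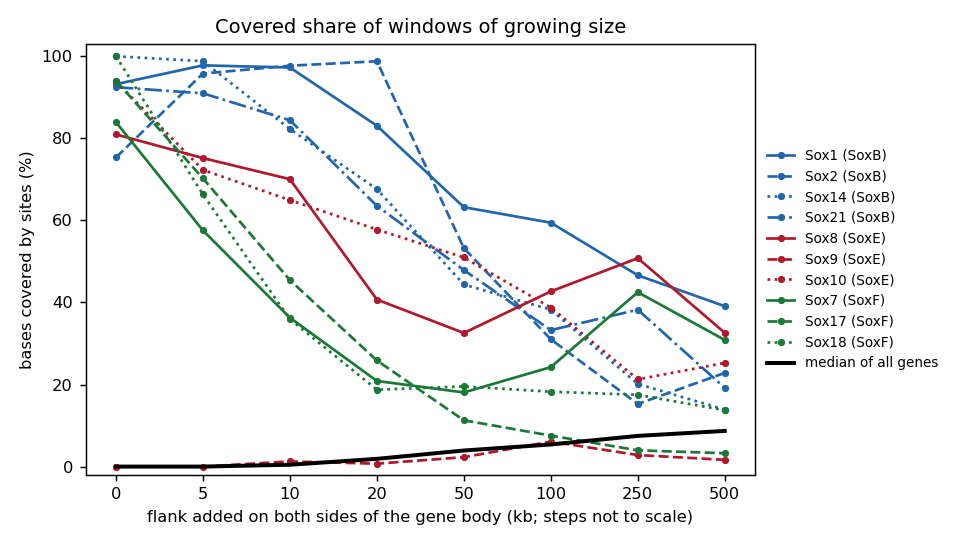
Percentage of bases covered by sites (y axis) in windows of the gene body plus flanks of 0 to 500 kb on both sides (x axis, steps not to scale) for each gene, coloured by group, with the median of all protein-coding genes in black. The 3 SoxF lines drop to 25.9% or lower at 20 kb, where the 4 SoxB lines are at 63.5% or higher. The lines of Sox1, Sox14 and Sox21 have also dropped by then. Sox9 is below the median of all genes at the widest flanks, 1.64% against 8.69% at 500 kb.

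The windows of the 10 genes held 23 CpG islands, of which 17 lay wholly in sites and 6 had no covered base. No island was covered in part. Over the genome 21.8% of 15766 islands lay wholly in sites. Of the 6 uncovered islands 3 were those of Sox9. The remaining 3 each held the main TSS of a neighbouring protein-coding gene: Lmf1 in the window of Sox8, Polr2f and 1700088E04Rik in that of Sox10, and Tcea2, which encodes a transcription elongation factor, in that of Sox18. These neighbours were named after their values were seen. In these 3 windows the island nearest the Sox TSS lay wholly in a site. The 1 separate island with the main TSS of a noncoding neighbour, that of Sox1ot, lay wholly in a site. Within the windows, the CpG ratio was higher inside sites than outside at 7 of the 10 genes, for example 0.477 against 0.162 at Sox17 and 0.446 against 0.222 at Sox21. It was lower inside at Sox10, with 0.213 against 0.298, at Sox9, where the 1 small site had 0.0553 against 0.296, and at Sox2, with 0.442 against 0.773 in the 507 bp outside sites.

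Uncovered stretches inside the genes shared a position. Apart from Sox9, the gene bodies held 10 stretches without a site, and 9 of them, 264 to 631 bp long in 7 genes, lay in exon sequence beyond the 3' end of the coding sequence. All 9 had a lower GC content than the gene they lay in. At Sox1, Sox2, Sox21 and Sox17 it was 30.2%, 30.4%, 27.6% and 29.5%, beside 56.9%, 50.5%, 58.3% and 49.8% over the gene body, and at Sox10 54.5% beside 57.8%. Up to 48.3% of such a stretch was repeat sequence. The part of base composition and repeats in these interruptions was not tested. The coding sequence was covered to 100% at 8 of the 10 genes.

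The other Sox genes showed that coverage was not a property of the whole family. The 9 genes had a median covered share of 0.807%, against 1.88% over all protein-coding genes. A site lay no more than 1 kb from a TSS of any annotated transcript at 5 of the 9, against 26.9% of all genes. All 9 had a CpG island at a TSS. The main TSS itself lay in a site at 2 of the 9, against 3911 of 21755 genes. Sox6 was counted through another transcript, since its main TSS was 38475 bp from the nearest site. Sox3, the X-linked SoxB1 gene, had 35.4% of its window and 100% of its gene body covered, and 100% within 5 kb of its TSS. From 5 to 20 kb it had 16.3%, below the 4 autosomal SoxB genes. Its covered share of the window was also below those of Sox8 and Sox10. The SoxC genes Sox4 and Sox11, which act in many embryonic tissues including mesenchyme, had no site, the nearest lying 62149 and 30306 bp from their TSS, and Sox12 had 18.3%. Among the SoxD genes, Sox13 had 36.2%, mostly outside a gene body covered to 8.82%, while the long genes Sox5 and Sox6 had 2.10% and 0.807%. Sox15 and Sox30 had no site.

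Genes that work beside the 3 groups were described from lists of lineage genes. Of 12 neural genes 11 had a site at a TSS, against 26.9% of all protein-coding genes, and their median covered share was 61.3%. Lhx2 and Otx2, forebrain regulators, were highest with 91.1% and 80.9%, and Fabp7 and Neurod1 lowest with 0% and 28.9%. Of 15 neural crest and cartilage genes 11 had a site at a TSS, but only 6 had the main TSS in a site, and the median covered share was 19.4%. The cartilage matrix genes Matn1 and Acan were highest with 82.5% and 66.9%, and Foxd3 and Mitf, a neural crest and a pigment cell regulator, were at 0%. Of 15 endothelial genes 10 had a site at a TSS, with a median of 14.2%. Robo4 and Tal1 were highest with 77.2% and 76.0%, and Emcn and Tek were at 0%. The order of the 3 list medians was that of SoxB, SoxE and SoxF, but each of the 3 lists spread from 0% to 77.2% or more. Gene length differed widely among the listed genes and was not adjusted for. A site of a given width is a smaller share of a longer window.

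Of 15 genes typical of fibroblasts 1 had a site at a TSS, and 10 had no base of the window covered, among them the collagen genes Col1a1 and Col1a2. The highest were Pdgfrb and Fbln2 with 10.1% and 8.60%. Among all protein-coding genes 26.9% had a site at a TSS, and 8372 of 21755 had no covered base in the window. With a median of 1.88% over all genes, little coverage is common, so these counts are a weak check of the labelled cell type.

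**Figure D4:**
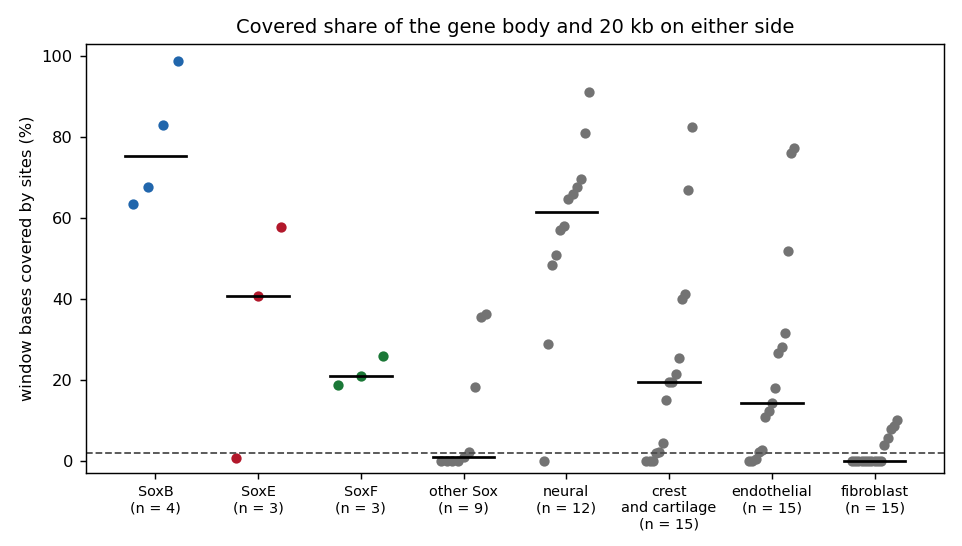
Covered share of the window (y axis, percent of bases) for each gene of the 3 Sox groups, the other Sox genes and 4 lists of lineage genes, with 1 point per gene, a black line at the median of each group and a dashed line at the median of all protein-coding genes (1.88%). The medians of SoxB and of the neural genes are highest, single crest, cartilage and endothelial genes reach similar shares, and 10 of 15 fibroblast genes are at 0.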

How the data were processed

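The authors deposited H3K27me3 positions (chromosome, start, end) over all samples of what the labels call the second experiment, and this list was used. Data of another H3K27me3 experiment were not analysed here. Per the study's methods, reads were trimmed, aligned with BWA to mm10 (GRCm38.p6, GENCODE M25), and filtered with SAMtools, replicates were merged with Picard, and broad peaks were called with MACS (MACS2 in the submitters' processing notes). Cutoffs, whether peaks were called on merged replicates, and the rule that joined the samples' peaks are not given in the sources used here. This list holds no counts or signal, so it gave no value per library to group, average or test. The study's own comparison of time points, made with DESeq2, was not used here. There were 0 unused columns of per-sample values. Intervals and replicate errors could not be given.

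Starts were read as counted from 0, since the smallest width was then 200 bp, and positions are printed counted from 1. A different convention would shift starts by 1 bp. Genes were those of GENCODE M21 on chromosomes 1 to 19 and X of GRCm38, and the main TSS was that of the principal protein-coding transcript. CpG islands were segments of repeat-masked sequence (score 17 for a CpG, -1 for another base) of at least 200 bp, with at least 50% GC and a CpG ratio of at least 0.6. The windows held no unknown bases. Coverage code was tested on simulated intervals. Alternatives were other flanks, TSS windows, minimum site widths and the merging of sites. Python 3.11.15 and NumPy 2.4.6 were used.

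The named genes were the 10 members, all other Sox genes, and the 2 highest and 2 lowest genes by covered share of each lineage list, with ties in alphabetical order. The members and lists were chosen with earlier results of these data known, and the split at 5 kb, the uncovered stretches and the islands of neighbours were described after the values were seen.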

Additional observations from a re-analysis of the deposited data

How the results depend on the processing

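Of the 10 genes, 9 had a site in the window with flanks of 0 or 5 kb and with sites of at least 500 or 1000 bp, Sox9 being without one, and 10 with flanks of 50 kb or merged sites. A site at a TSS was found for 9 genes under all 6 alternatives. The number of sites, 42, became 15, 22 and 104 with flanks of 0, 5 and 50 kb and 13 after merging. With flanks of 0, 5 and 50 kb and after merging sites less than 3000 bp apart, the median covered share was 92.8%, 96.8%, 50.6% and 85.8% for SoxB (75.4% as reported), 81.0%, 72.3%, 32.6% and 51.4% for SoxE (40.7%), and 94.0%, 66.3%, 18.1% and 22.2% for SoxF (20.9%). With sites of at least 500 or of at least 1000 bp it was 75% for SoxB and 19.9% for SoxF. The order of the 3 groups held in all these settings but the gene body alone. It did not hold with the wider flanks of 100 and 500 kb, where the SoxE median was above the SoxB median. No paired analysis was possible because the list used holds no value for a library. Depth could not be examined, so a region without a site is one in which no site was called, and the absence of the mark there is not shown.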
